A study of Mus musculus with 18 samples.

Results

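Neutrophils sorted from the bone marrow of mice labelled CIS-/- were compared after 24 h of culture with GM-CSF and directly after the sort. The comparison uses 6 of the 18 RNA-seq libraries of the series, the 3 unstimulated and the 3 GM-CSF 24h libraries labelled CIS-/-, which were chosen by their labels alone, and it covers the 11569 genes that passed a filter on low counts. Per the labels the mice were 10 weeks old and carried the CIS-/- genotype, a knockout of the gene Cish, in every compared library. The unstimulated cells were lysed straight after the sort, and the others were cultured in serum-containing RPMI1640 with 100 ng/mL GM-CSF. The series as a whole holds 6 groups of 3 libraries, WT and CIS-/- at each of unstimulated, 4 h and 24 h, and concerns GM-CSF from NK cells in inflammatory arthritis and its restraint by CIS. The labels name the later time as 24 h in the titles and the extraction text but as 42 h in the treatment text, and 24 h is used here. All cultured cells received GM-CSF, so its effect and that of time in culture cannot be told apart. The sources used here give neither the strain nor the Cish allele, and do not say that each replicate is a separate mouse. P-values therefore measure the spread between libraries alone, which may be technical.

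GM-CSF is a growth factor that keeps neutrophils alive and primes them for inflammation. It binds a receptor made of the alpha chain Csf2ra and the shared beta chain Csf2rb, whose associated kinase Jak2 phosphorylates STAT5. STAT5 then enters the nucleus and switches on genes that include Cish, and the CIS protein made from Cish, like the related SOCS proteins, acts back on the receptor complex to limit the signal. Neutrophils fresh from the marrow are short-lived cells filled with granule proteins that were transcribed during their maturation.

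Cish was examined first because it is the targeted gene. In the libraries labelled CIS-/- the 3 unstimulated libraries held 18.3, 20 and 17.9 CPM (read counts scaled to a common depth, with TMM factors), those of 4 h held 243, 240.4 and 237 CPM and those of 24 h held 238, 243 and 233 CPM. The log2 fold change at 24 h was 3.67 ± 0.045 (± SE, as for every value on the log2 scale, edgeR adjusted p = 5.42e-59). In the WT libraries its mean was 6.5 ± 0.019 CPM unstimulated and 1060.3 ± 7.4 CPM at 24 h (mean ± SD, n = 3, as for every CPM mean). The libraries labelled CIS-/- therefore held less Cish than WT at 24 h but more before stimulation, which goes against the label, and they are called libraries labelled CIS-/- throughout. Every direction below is measured from those unstimulated libraries. What the deletion removed from Cish is not in the labels, so reads from a remaining part would count too. The transcript Gm17040, which overlaps Cish on the opposite strand and was picked after its values were seen, went from 4.14 to 23.8 CPM on average. The library kit keeps strand, but the sources used here do not say whether the counting used it, so reads in an overlap cannot be assigned with certainty.

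Total counts of the compared libraries lay between 12170524 and 22539858, mitochondrial genes held 0.161 to 0.192% of them, and the 10 highest genes of a library held 11.1 to 14.1%. One library stood apart from its group. Replicate 1 at 24 h differed from replicates 2 and 3 with a chi-square per degree of freedom of 6.82 and 8.46, against 2.4 between those and 1.285 to 1.708 among the unstimulated libraries. It held more of Gm42418, which overlaps ribosomal RNA sequence, and of Lars2 (1149 and 224 CPM, against 392 and 101 CPM in replicate 2), and relatively more of short genes. Its part in the results was not tested beyond leaving it out. Its log2 difference from the mean of replicates 2 and 3 had a median of 0.18 over 209 genes with under 1500 exon bases and of -0.12 over 1080 genes with over 8000. Without it 9770 of 11833 genes that pass the filter were called, and with it 9727 of 11569. Among the 11569 genes tested in both fits 9478 were called in both in the same direction, 249 only with it, 159 only without it and 0 in opposite directions. The largest shift in the log2 fold change of a gene between the fits was 3.71.

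The transcriptome after 24 h differed from that of freshly sorted cells at most measured genes. In edgeR's quasi-likelihood test, 9727 of 11569 genes were called at a Benjamini-Hochberg adjusted p under 0.05, which is 84.1%, with 4865 higher (42.1%) and 4862 lower (42.0%). At least 2-fold changes were seen in 5775 genes (49.9%), of which 2853 rose (24.7% of all) and 2922 fell (25.3%). The CPM of the 2 groups did not overlap at 9709 genes (83.9%). The median absolute log2 fold change was 1.01, and the median log2 fold change was -0.014. Scaling by library sizes alone, without TMM factors, shifts the median to -0.197 and gives 4242 genes higher and 5526 lower, so small changes are relative to the bulk of genes. With so high a background, a list is described below by the direction and size of its members' changes, and the share called says little by itself.

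The genes that filled the most reads changed places. Before stimulation the S100 alarmins S100a9 and S100a8, the lysozyme gene Lyz2 and the granule proteins Ngp, Ltf and Retnlg were among the 10 highest genes by CPM. After 24 h Fth1, the ferritin heavy chain, was highest, at 36351, 31920.1 and 32427 CPM against 2301, 2277 and 2251 CPM unstimulated. Ccl6, a CC chemokine, stood second at 21565, 18586 and 20287 CPM, up from 1437, 1433 and 1423 CPM. Ftl1, the ferritin light chain, Thbs1, the matrix glycoprotein thrombospondin, Psap, a lysosomal activator protein, Cxcl2 and Il1rn also entered the 10 highest. On a per-length scale (RPKM, which divides CPM by kilobases of exon) Fth1 rose from 656 to 9676 RPKM and Retnlg fell from 15238 to 146 RPKM.

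**Figure D1:**
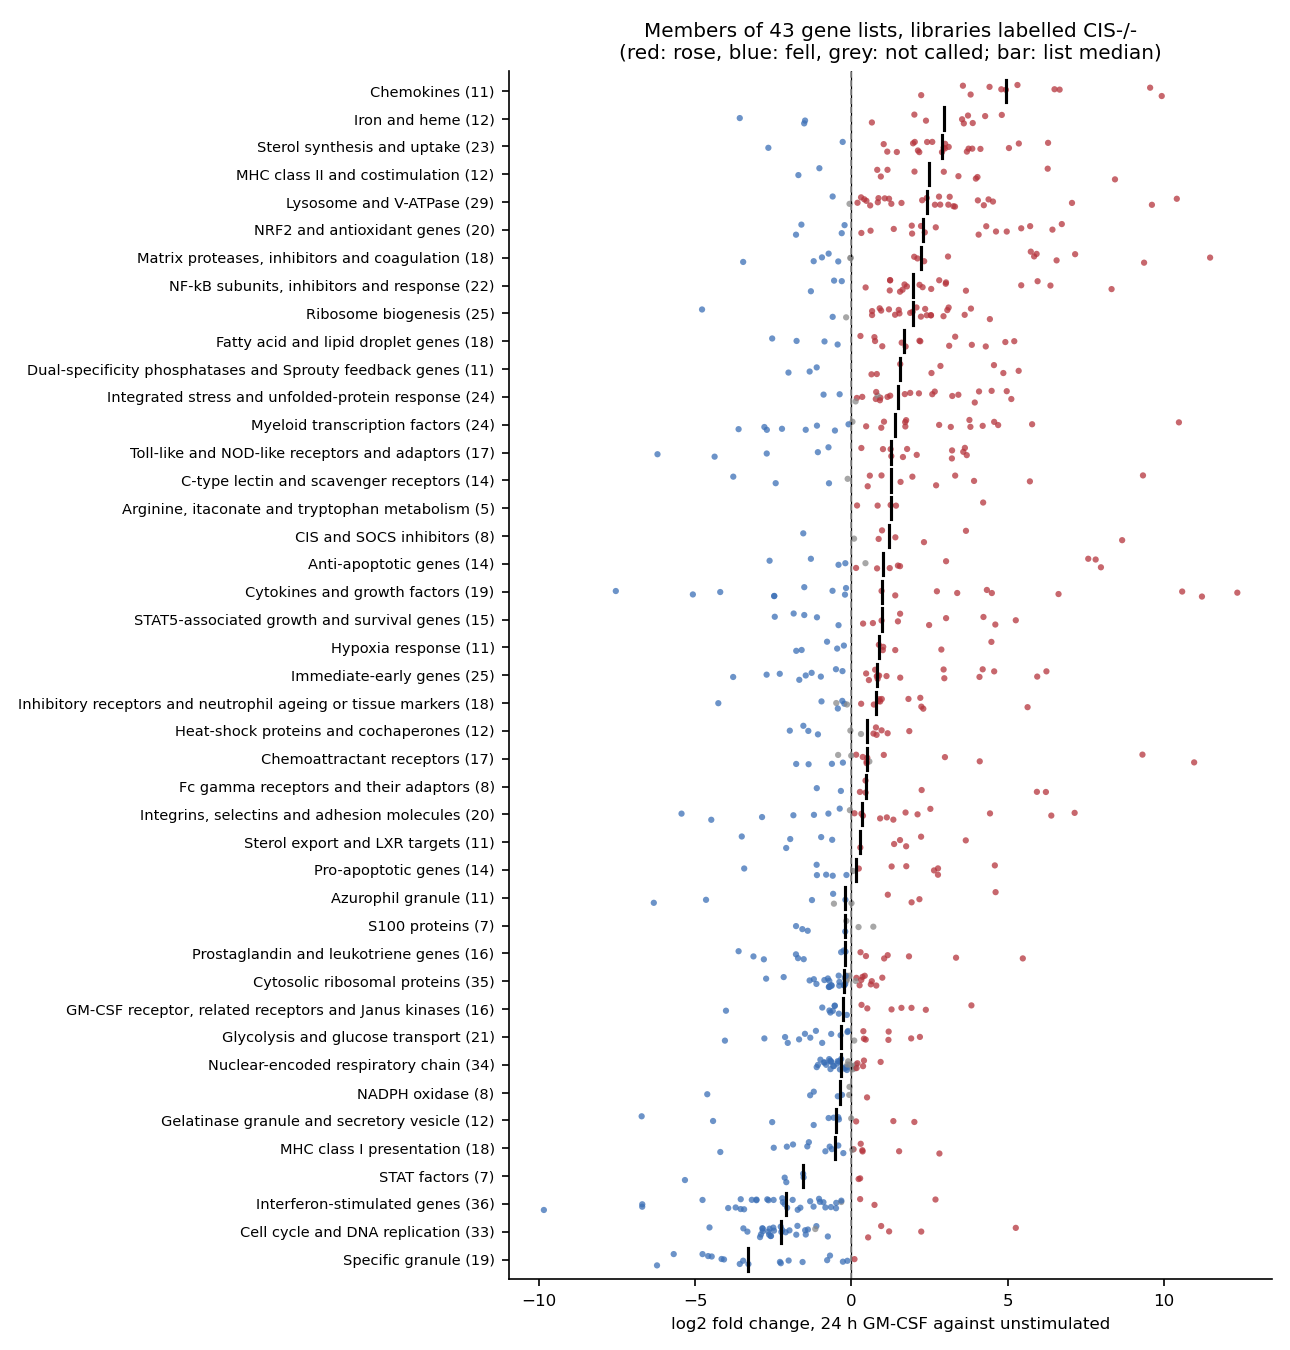
Log2 fold changes of the tested members of 43 gene lists at 24 h against unstimulated in the libraries labelled CIS-/-; each point is a gene (red rose, blue fell, grey not called), the black bar is the list median and the number in brackets is the genes tested. The dashed line is the median of all genes, -0.014. Chemokines lie at the top with a median of 4.94 and specific granule genes at the bottom with a median of -3.30.

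Receptor chains for GM-CSF were higher at 24 h and most STAT genes were lower. Csf2rb2, the beta chain specific to interleukin-3 in mice, was at 65, 64.5 and 61.2 CPM unstimulated and 877, 955 and 902 CPM at 24 h, a log2 fold change of 3.84 ± 0.04. Csf2rb rose from 633 ± 6 to 1921 ± 52 CPM, and Csf2ra from 884 ± 5 to 1107 ± 29 CPM, with 3 libraries of each group apart from the other group. Jak2 rose from 113 ± 2.2 CPM to 1165 ± 36 CPM at 4 h and stood at 586 ± 32 CPM at 24 h. Jak3, the kinase of the common gamma chain, fell from 32.2 ± 1.2 to 1.92 ± 0.33 CPM. Over the list of 16 tested receptor and kinase genes 7 rose and 9 fell, with a median of -0.27. The receptor for G-CSF, Csf3r, fell by 0.93 ± 0.029 on the log2 scale and the receptor for M-CSF, Csf1r, by 0.60 ± 0.036.

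Of 7 STAT genes, 5 fell at least 2-fold and 2 rose by less. Stat5b, which carries the GM-CSF signal together with Stat5a, was at 258, 266 and 261 CPM unstimulated and 60.9, 63.3 and 61.4 CPM at 24 h, and all its 24 h values lay below all its unstimulated ones. Stat5a fell from 26.9 ± 0.79 to 9.4 ± 0.87 CPM, and Stat3, which overlaps Stat5a on the opposite strand, from 518 ± 7.6 to 177 ± 8.9 CPM. Stat4 fell furthest, from 30.5 ± 1.9 to 0.725 ± 0.33 CPM, a log2 fold change of -5.33 ± 0.15 (edgeR adjusted p = 2.69e-39). Among the inhibitors, 6 of 8 SOCS family genes rose, 1 fell and 1 was not called. Socs1 rose from 21.4 ± 0.32 CPM to 294 ± 3.8 CPM at 4 h and was at 107 ± 5.4 CPM at 24 h. Socs2 had no count unstimulated and 134 counts at 24 h, which is at least 48.7-fold higher when 3 counts are taken as the floor of the group. Socs3, the inhibitor most tied to G-CSF and STAT3 signals, fell from 1801 ± 19 to 619 ± 1.6 CPM. Of 15 tested growth and survival genes associated with STAT5, 10 rose and 5 fell, with a median of 0.97. Of these, 7 rose and 4 fell at least 2-fold. Bcl2l1, which encodes the survival protein Bcl-xL, rose from 42.6 ± 1.5 to 348 ± 1.3 CPM and the kinase gene Pim1 from 629.8 ± 5.2 to 1767 ± 20 CPM. The cell-cycle inhibitor Cdkn1a rose from 9.35 ± 1.2 to 359 ± 19 CPM. Bcl6, a repressor that STAT5 is known to lower, fell from 272 ± 2.8 to 50.1 ± 2.9 CPM.

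Chemokine genes were the list with the highest median. All 11 tested chemokines rose at least 2-fold, with a median log2 fold change of 4.94, and 10 of the 11 were higher at 24 h than at 4 h. Over all genes the libraries at 24 h and 4 h, of which the 24 h ones are the same as in the main comparison, differed at 75.7%, with 37.8% higher and 37.9% lower at 24 h. Cxcl2, a ligand of the neutrophil receptor Cxcr2, read 237, 242 and 249 CPM unstimulated, 123, 127 and 115 CPM at 4 h and 7985, 6955 and 7507 CPM at 24 h. It was thus below its starting level in all 3 libraries at 4 h and above it in all 3 at 24 h, with a log2 fold change of 4.94 ± 0.052. Its neighbour Cxcl3 went from 2.74, 3.23 and 2.64 CPM through a mean of 46 ± 2 CPM at 4 h to 2929, 2602 and 2895 CPM, a log2 fold change of 9.93 ± 0.071. Ccl3, which attracts monocytes and neutrophils, was at 36.3, 34 and 37.2 CPM and then at 4054, 3476 and 3362 CPM. Ccl4 rose from 34.8 ± 0.59 to 746 ± 67 CPM, and Ccl6 passed through 7163 ± 151 CPM at 4 h. Cxcl1 rose from 3 counts over the unstimulated group to 6.33 ± 1.1 CPM, a ratio of 102 with a 95% counting interval of 34.5 to 496, which covers counting error only. No chemokine group overlapped between the unstimulated and 24 h libraries. The 8 chemokines not tested lay under 1 CPM in both groups.

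The Cxcl1, Cxcl2 and Cxcl3 genes lie near one another on chromosome 5, and their promoters are shown because all 3 rose and all 3 hold the letters of an NF-kB site. NF-kB is a family of transcription factors that drives inflammatory genes. Within the 250 bases before each gene start in the RefSeq promoter table (GRCm38.p6), the pattern searched, GGG then any 2 bases then TTTCC, on either strand, was found at 4 of 12 listed chemokines that had a promoter (33.3%), Ccl9 being the fourth, against 1.65% of 27025 genes. The stretches below run 5′ to 3′ on the gene's strand with the matches in capitals, at chr5:90891131-90891208, chr5:90903777-90903855 and chr5:90786003-90786062 (all + strand), and below them Csf1 at chr3:107760589-107760648 (- strand) and Nfkbia at chr12:55492648-55492701 (- strand). All lie upstream of the RefSeq gene start and outside annotated exons.
Cxcl1: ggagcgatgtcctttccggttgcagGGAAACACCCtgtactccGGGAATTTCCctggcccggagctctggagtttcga
Cxcl2: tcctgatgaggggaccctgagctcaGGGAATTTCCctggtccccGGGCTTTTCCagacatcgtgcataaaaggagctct
Cxcl3: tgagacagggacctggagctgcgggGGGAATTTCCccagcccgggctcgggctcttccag
Csf1: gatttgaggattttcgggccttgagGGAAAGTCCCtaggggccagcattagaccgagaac
Nfkbia: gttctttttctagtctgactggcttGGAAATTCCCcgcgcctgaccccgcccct
The 3 chemokine stretches share the exact letters GGGAATTTCC, which the Nfkbia stretch also holds, on the opposite strand. In this window 28 of the 27025 genes hold these letters on either strand. These letters were picked because the 3 genes share them, so that count is no test. A match is a description of the letters and not evidence that a factor binds there.

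Cytokine genes did not move as a block. Of 19 tested, 10 rose and 9 fell, with a median of 0.97, and 11 of the 30 listed were too low to test. Csf1, the growth factor M-CSF of macrophages, was at 55.2, 52.3 and 56.5 CPM unstimulated, 267, 264 and 271 CPM at 4 h and 5247, 5425 and 5541 CPM at 24 h. Il1a, an interleukin-1, rose from 0.082 ± 0.093 CPM to 9.41 ± 1 CPM at 4 h and 140.3 ± 9 CPM at 24 h. Il1b was high in freshly sorted cells, at 1488 ± 5.4 CPM, read 219.5 ± 4.5 CPM at 4 h and 1291 ± 75 CPM at 24 h. Il1rn, which encodes the antagonist of both interleukins, went from 320.0 ± 2.8 through 795 ± 20 to 7212 ± 181 CPM. Among the others that rose, Hbegf, an EGF-like growth factor, went from 0.228 ± 0.12 to 567 ± 33 CPM, Tnf from 27.7 ± 0.82 to 560.2 ± 31 CPM and Tgfb1 from 91.5 ± 1.8 to 957 ± 14 CPM. Tnfsf13b, which encodes the B-cell survival factor BAFF, fell from 69.4 ± 0.92 to 0.392 ± 0.12 CPM, Il15 from 70.9 ± 2.4 to 12.7 ± 0.76 CPM and the interleukin-6 family gene Osm from 645 ± 15 to 227 ± 13 CPM. Csf2, the gene of GM-CSF itself, had no count in any compared library, which allows at most 3 counts over a group.

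**Figure D2:**
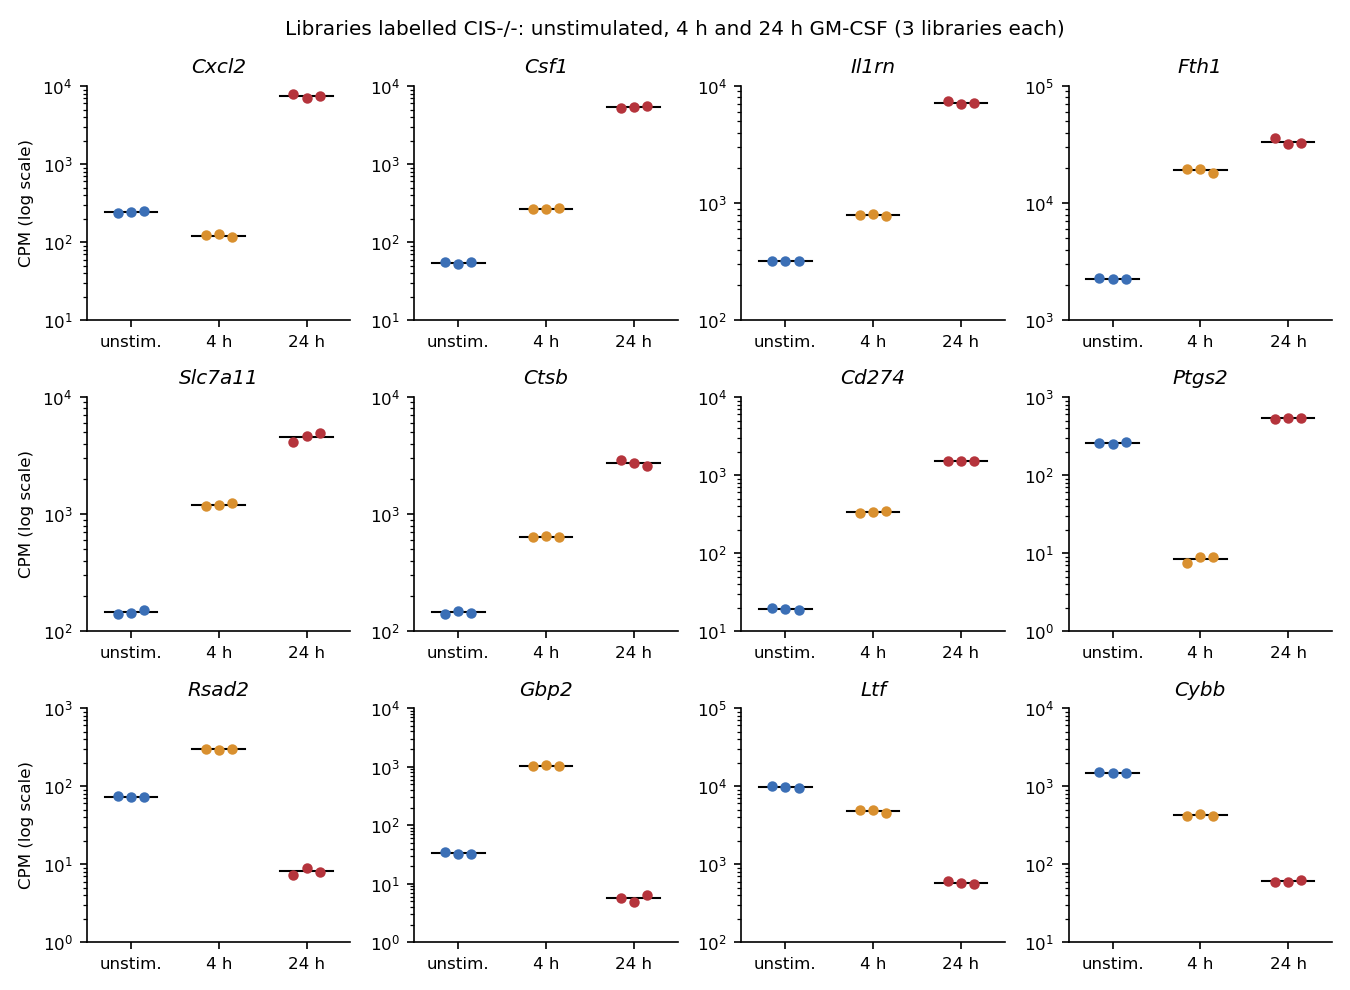
CPM of 12 genes (log scale) in each library labelled CIS-/- that was unstimulated, 4 h or 24 h in GM-CSF; points are libraries and bars are the means of 3. Cxcl2 and Ptgs2 were lower at 4 h and higher at 24 h than unstimulated, Rsad2 and Gbp2 peaked at 4 h and fell below their starting level, and Ltf and Cybb fell at each time. No unstimulated value overlaps a 24 h value in any panel.

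Of 22 genes for NF-kB subunits, their inhibitors and their targets 19 rose and 3 fell, with a median of 1.98, and 20 were higher at 24 h than at 4 h. The inhibitor Nfkbia, a target of NF-kB that holds the pattern shown above, was at 269, 279 and 267 CPM unstimulated and 2399.8, 2085 and 2118 CPM at 24 h, while its mean at 4 h was 256 ± 6 CPM. Relb rose from 19.4 ± 0.68 to 246 ± 2.2 CPM, Nfkb2 from 67.8 ± 1.2 to 398 ± 11 CPM and the ubiquitin-editing inhibitor Tnfaip3 from 72.5 ± 2.8 to 508 ± 32 CPM, with values at 4 h of 34.7 ± 1.1, 66.2 ± 0.58 and 95.7 ± 3.6 CPM. Ikbke, a kinase related to the IKK complex, rose from 5.97 ± 0.13 to 372 ± 18 CPM. Cd83, a marker of activated antigen-presenting cells, was at 0.0609, 0.19 and 0 CPM unstimulated, a mean of 6.53 ± 0.76 CPM at 4 h and 29.4, 30.1 and 28.8 CPM at 24 h. Traf1, an adaptor of TNF receptors, rose from 0.583 ± 0.23 to 49.2 ± 2.5 CPM and Sod2, the mitochondrial superoxide dismutase, from 13.4 ± 0.56 to 579 ± 35 CPM. The 3 that fell were Birc2, Nfkbiz and Bcl3, by 1.30 ± 0.067, 0.55 ± 0.034 and 0.31 ± 0.042 on the log2 scale. The NF-kB pattern was in 4 of 18 listed genes with a promoter (22.2%), namely Nfkb2, Nfkbia, Rel and Tnfaip3. In the cytokine list it was in 3 of 20 genes with a promoter (15%), Csf1 among them.

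Immediate-early genes, which respond within minutes to many stimuli, were low at 4 h and higher again at 24 h. Of 25 tested, 16 rose and 9 fell against unstimulated (median 0.81), and 21 were higher at 24 h than at 4 h. Dusp1, a MAP kinase phosphatase, was at 995, 1017 and 984 CPM unstimulated, 248, 246 and 240.3 CPM at 4 h and 1754, 1773 and 1734 CPM at 24 h. Egr1 followed the same order with means of 123 ± 2.7, 30.2 ± 0.78 and 208 ± 7.3 CPM, and Nr4a1 with 86.8 ± 2.2, 5.73 ± 0.53 and 156 ± 8 CPM. Ptgs2, the inducible cyclooxygenase, was at 261, 253 and 262 CPM, then 7.57, 8.93 and 8.93 CPM, then 523, 541 and 541 CPM. The drop and return in these genes held in every library. Another set climbed from the start: Maff went from 7.53 ± 0.77 through 38.7 ± 1.7 to 571 ± 11 CPM, and Atf3 from 57 ± 2.6 through 97.2 ± 1.8 to 976 ± 29 CPM. Nr4a3, an orphan receptor related to Nr4a1, went from 2.6 ± 0.11 through 4.75 ± 0.73 to 160.4 ± 8.7 CPM. Fos, a subunit of the AP-1 factor, fell and did not return, with 1246 ± 4.6, 76.5 ± 2.1 and 90.6 ± 1.1 CPM, as did Ier2, which ended at 125 ± 2.3 CPM after 615 ± 9 CPM unstimulated. Of 11 dual-specificity phosphatase and Sprouty feedback genes 8 rose and 3 fell, with Dusp5 rising from 53 ± 1.4 to 1251 ± 38 CPM and Dusp6 falling from 314 ± 1.3 to 124 ± 2 CPM.

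**Figure D3:**
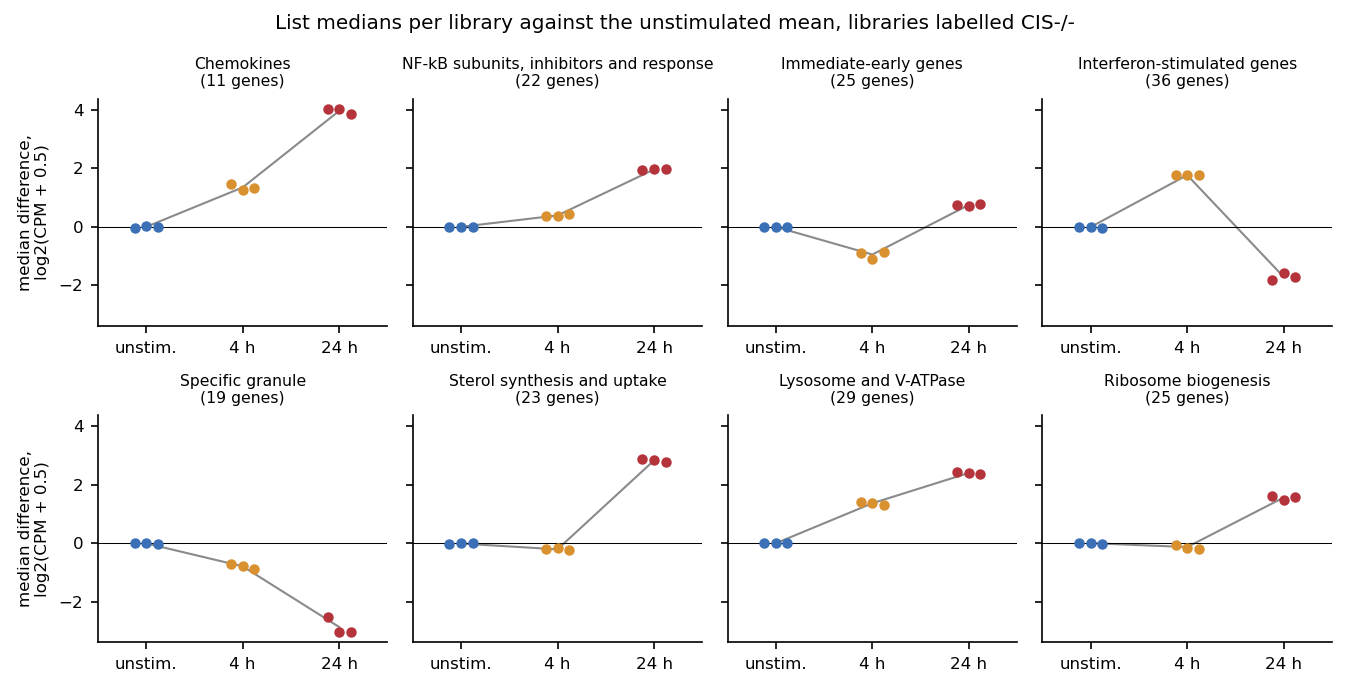
Median over the members of 8 gene lists of log2(CPM + 0.5) in each library minus the mean of the unstimulated libraries, at unstimulated, 4 h and 24 h in libraries labelled CIS-/-; points are libraries and lines join the means of 3. Immediate-early genes dip to between -0.86 and -1.09 at 4 h and stand between 0.71 and 0.79 at 24 h, and interferon-stimulated genes go from between 1.76 and 1.78 at 4 h to between -1.60 and -1.83 at 24 h.

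Interferon-stimulated genes moved the opposite way to the immediate-early list. They rose by 4 h and fell below their starting level by 24 h: 32 of 36 tested fell against unstimulated, 3 rose and 1 was not called, with a median of -2.10, and 36 of 36 were lower at 24 h than at 4 h. Rsad2, which encodes the antiviral protein viperin, was at 75.8, 73.2 and 71.6 CPM unstimulated, 297, 294 and 301 CPM at 4 h and 7.36, 8.92 and 8.06 CPM at 24 h. Gbp2, a guanylate-binding protein, went from 32.9 ± 1.9 to 1037 ± 19 and then to 5.72 ± 0.74 CPM. Oas3, an oligoadenylate synthetase, went from 307 ± 4.7 to 813 ± 19 and then to 26.5 ± 2.3 CPM. Ifit1, of the family that binds viral RNA, passed from 12.8 ± 1.8 through 43.1 ± 1.7 to 1.99 ± 0.29 CPM. The paralogs Ifit3 and Ifit3b are nearly identical, so their counts may be split between them, and they fell from 10.3 ± 0.31 and 7.02 ± 1.3 CPM to 0.0759 ± 0.075 CPM and no count. Ifit2 fell from 5.51 ± 0.24 to 0.0334 ± 0.058 CPM and Cmpk2, a nucleotide kinase, from 117 ± 2.8 to 4.23 ± 0.48 CPM. Oasl2 was among the 3 that rose, with 157 ± 1.8, 3076 ± 53 and 1012 ± 26 CPM. The factor Irf7, which overlaps Phrf1 on the opposite strand, fell by 2.21 ± 0.054 on the log2 scale.

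Promoters of the interferon list are shown because the list's known element is common in it. The pattern searched, TTTC then any 2 bases then TTTC, on either strand, is the core of the interferon-stimulated response element and was found in 18 of 31 listed genes with a promoter (58.1%) against 3.46% of 27025 genes. The stretches lie at chr19:34640760-34640838 (+ strand), chr4:156200850-156200921 (- strand) and chr12:26456538-26456597 (- strand), with matches in capitals.
Ifit1: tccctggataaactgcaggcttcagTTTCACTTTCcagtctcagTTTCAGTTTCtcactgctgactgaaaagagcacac
Isg15: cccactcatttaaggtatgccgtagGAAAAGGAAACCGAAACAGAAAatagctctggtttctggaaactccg
Rsad2: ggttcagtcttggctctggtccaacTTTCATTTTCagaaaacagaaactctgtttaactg
Isg15 holds 3 overlapping matches, Ifit1 holds 2 and Rsad2 holds 1. Isg15, a ubiquitin-like protein, was at 13.6 ± 0.5 CPM unstimulated, 65.9 ± 0.89 CPM at 4 h and 3.04 ± 0.67 CPM at 24 h.

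Neutrophil granule genes fell. Of 19 specific granule genes 18 fell, 14 of them at least 2-fold, and 1 rose, with a median of -3.30. Ltf, lactoferrin, was at 9999.6, 9811 and 9541 CPM unstimulated, 4977, 4974 and 4578 CPM at 4 h and 604, 577 and 559 CPM at 24 h. Camp, the cathelicidin antimicrobial peptide, fell from 2430.0 ± 54 to 47.1 ± 4.8 CPM, Lcn2, lipocalin, from 5775 ± 111 to 486 ± 39 CPM and Lrg1 from 726 ± 18 to 9.78 ± 1 CPM. All these genes were already lower at 4 h. Cd177, the one gene that rose, went from 3185 ± 88 to 3409 ± 73 CPM with a log2 fold change of 0.098 ± 0.03, which turns to -0.0844 with library sizes alone and is not called without unstimulated replicate 3 (0.0621, edgeR adjusted p = 0.0881). In the azurophil granule list 4 of 11 rose and 5 fell. Lyz2 fell from 10521 ± 432 to 419 ± 38 CPM, whereas Ctsc, the protease that activates granule serine proteases, rose from 10.3 ± 0.91 to 253 ± 5.4 CPM. Of the secretory vesicle and gelatinase list 8 of 12 fell, with Mmp9, gelatinase B, at 9126 ± 109 and 6818 ± 142 CPM. S100a8 and S100a9, which form calprotectin, fell from 26679.7 ± 370 to 10121 ± 968 and from 40519.8 ± 938 to 13645 ± 1447 CPM. In the NADPH oxidase, which makes superoxide, Cybb, the catalytic subunit, was at 1514, 1469 and 1488 CPM unstimulated and 59.8, 60 and 62.5 CPM at 24 h. Its membrane partner Cyba rose from 551 ± 12 to 779 ± 72 CPM, while the cytosolic subunits Ncf1 and Ncf4 fell by 0.43 ± 0.029 and 0.30 ± 0.035 on the log2 scale.

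All 12 neutrophil markers fell, by 0.42 to 6.71 on the log2 scale. Ly6g, the surface protein used to mark mouse neutrophils, was at 478, 475 and 460.0 CPM unstimulated and 69.8, 56.2 and 60 CPM at 24 h, and the summed neutrophil list went from between 118336 and 122274 CPM to between 33866 and 38356 CPM. In bulk libraries fewer cells of a type and less RNA per cell cannot be told apart. Of the factors that direct neutrophil maturation, Cebpe fell from 112 ± 7.3 to 16.2 ± 0.37 CPM, Cebpd from 433 ± 4.5 to 65.6 ± 7.1 CPM and Cebpa from 45.7 ± 1.6 to 9.74 ± 0.34 CPM. Cebpb, the member tied to emergency granulopoiesis, rose from 996 ± 28 to 2050.1 ± 229 CPM, and Gfi1 was at 7.62 ± 0.63 and 7.84 ± 0.3 CPM with no call. Factors linked to macrophage and osteoclast programs rose. Tfec went from 0.128 ± 0.11 through 19.8 ± 1.3 to 191 ± 7.8 CPM, Mitf from 14 ± 2 to 127 ± 7.3 CPM, Irf5 from 41.4 ± 1.5 to 580.1 ± 20 CPM and Bhlhe40 from 47.2 ± 2.4 to 2599.7 ± 26 CPM. Over the whole myeloid factor list 15 of 24 rose and 8 fell.

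Markers of other cells were read for the whole of each list, and their part in the results was not tested. Of 16 macrophage markers 6 were tested, of which 2 rose, 3 fell and 1 was not called, and the summed list went from between 409.6 and 428 CPM to between 1389 and 1481 CPM. Adgre1, the F4/80 antigen, rose from 54 ± 0.62 to 777 ± 18 CPM and Cd68, a lysosomal glycoprotein, from 59.9 ± 3.3 to 492 ± 48 CPM. The 3 that fell included Lyve1, a hyaluronan receptor, which went from 10.8 ± 0.84 to 0.21 ± 0.16 CPM, and Csf1r. The complement genes C1qa, C1qb and C1qc, and Mertk, Mrc1, Cd163, Timd4 and Vsig4, stood under 0.4 CPM in both groups, and Timd4 and Vsig4 had no count in either. The summed list of 10 monocyte markers went from between 1351 and 1388 CPM to between 5438 and 5582 CPM through Mpeg1, which went from 911 ± 10 to 5432 ± 79 CPM, while Ly6c2 fell from 458 ± 10 to 77.5 ± 6.4 CPM and Ccr2 and Cx3cr1 stayed under 1 CPM. The 8 basophil and mast cell markers summed to between 16.4 and 19.7 CPM and then to between 344 and 383 CPM through Kit, the stem cell factor receptor, which rose from 17.2 ± 1.1 to 366 ± 21 CPM, while the other 7 stayed under 1 CPM. Of 9 B-cell markers only Ighm passed 1 CPM, at 199 ± 3.8 and then 14.1 ± 1.7 CPM. The summed list of 10 T and NK cell markers went from between 7.41 and 8.18 CPM to between 1.2 and 2.39 CPM, with Ncr1 at no count in either group. The 9 erythroid markers went from between 123 and 126 CPM to between 30.7 and 41.8 CPM. The 10 dendritic cell markers went from between 289.9 and 299.9 CPM, mostly Wdfy4, to between 107 and 143 CPM, with Xcr1 at no count in either. The 9 eosinophil markers summed to between 56.4 and 58.2 CPM and then to between 78.6 and 88.4 CPM, with Ear6 up from 1.15 ± 0.19 to 28.2 ± 3 CPM and Ear2 down from 14 ± 0.18 to 0.316 ± 0.28 CPM. The 8 megakaryocyte and platelet markers summed to between 5.11 and 6.77 CPM and then to between 3.22 and 4.96 CPM.

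**Figure D4:**
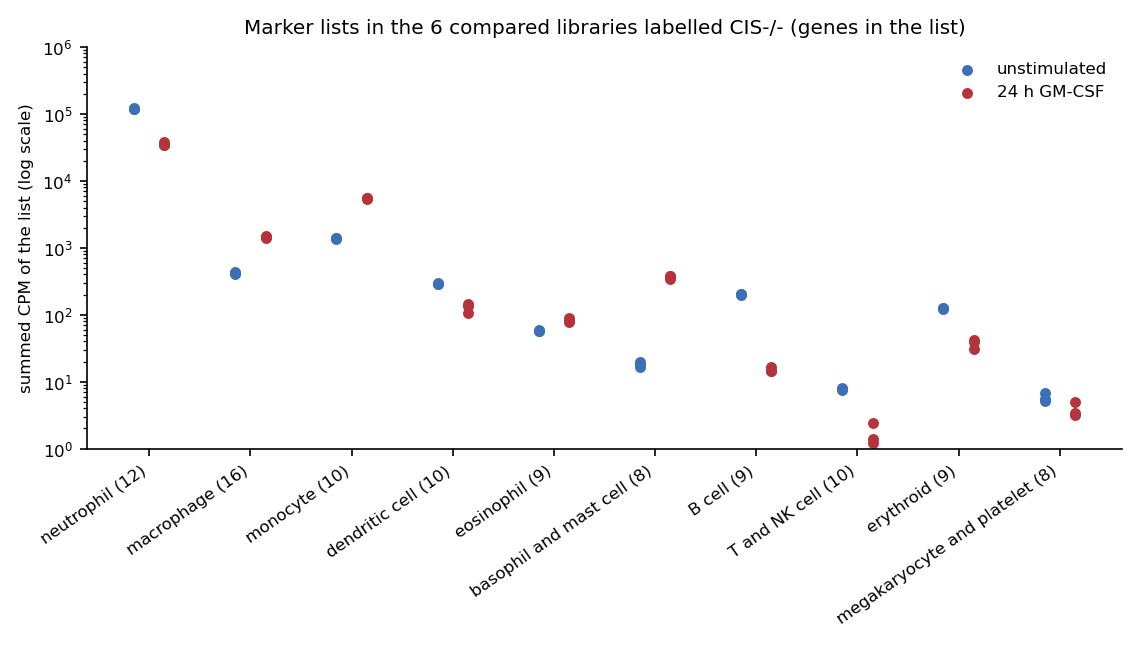
Summed CPM (log scale) of 10 marker lists in the 3 unstimulated libraries (blue) and the 3 libraries at 24 h (red) labelled CIS-/-; each point is a library and the number in brackets is the genes in the list. Neutrophil markers lie between 118336 and 122274 CPM unstimulated and between 33866 and 38356 CPM at 24 h, and stay the highest list.

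Receptors for immune complexes and for fungal or bacterial ligands rose in most cases, with 6 of 8 Fc receptor genes higher and 2 lower. Fcgr2b, the inhibitory IgG receptor, was at 38.8, 37.9 and 39.5 CPM unstimulated and 2922, 2917 and 2838 CPM at 24 h, and had reached 2817 ± 54 CPM by 4 h. Fcgr1, the high-affinity IgG receptor, rose from 0.168 ± 0.041 to 10.7 ± 0.57 CPM and Fcgr3 from 719.7 ± 5.7 to 3419 ± 311 CPM, while Fcgr4 fell by 0.34 ± 0.048 on the log2 scale. Clec4n, which encodes the fungal receptor Dectin-2, went from 8.09, 7.1 and 7.61 CPM through a mean of 189 ± 12 CPM to 5249, 4739 and 4718 CPM. Its groups were far apart, with a log2 fold change of 9.33 ± 0.058. Clec7a, Dectin-1, rose from 512 ± 6.5 to 3353 ± 133 CPM and Clec4d from 544 ± 5.6 to 2103 ± 165 CPM, and 10 of 14 lectin and scavenger receptor genes rose. In the list of Toll-like and NOD-like receptors and their adaptors, 12 of 17 tested genes rose and 5 fell. Tlr4, the endotoxin receptor, rose from 81.3 ± 4.7 to 754 ± 63 CPM and its partner Cd14 from 120.1 ± 1.6 to 1436 ± 51 CPM. Tlr8 fell from 84.9 ± 0.92 to 1.18 ± 0.26 CPM, Tlr5, the flagellin receptor, from 80.8 ± 1.5 to 3.83 ± 0.4 CPM, and the inflammasome protease Casp1 from 42.7 ± 1.8 to 6.58 ± 0.99 CPM.

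Genes for migration split, with 10 of 17 chemoattractant receptors higher and 4 lower. Cxcr2, the main chemokine receptor of neutrophils, was at 2240.5 ± 5.8 CPM unstimulated, 3881 ± 49 CPM at 4 h and 867 ± 3 CPM at 24 h. Cmklr1, the chemerin receptor, rose from 0.0832 ± 0.033 to 183 ± 4 CPM and Ptafr, the receptor for platelet-activating factor, from 222 ± 8 to 1769 ± 16 CPM. The alpha integrins Itgal and Itga4 fell, from 1085 ± 6.2 to 149.9 ± 12 CPM and from 94.2 ± 0.88 to 2.13 ± 0.5 CPM. Icam1, a ligand of Itgal, rose from 4.44 ± 1.1 through 41.4 ± 3.1 to 632 ± 13 CPM, Pecam1 from 9.86 ± 0.77 to 831 ± 16 CPM and Itgb1 from 25.7 ± 1.4 to 556 ± 14 CPM. In all 12 of 20 adhesion genes rose, 7 fell and 1 was not called.

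Class II and costimulatory genes, through which cells engage T cells, mostly rose. Cd274, which encodes the checkpoint ligand PD-L1, was at 20.1, 19.2 and 18.8 CPM unstimulated, 331, 335 and 348 CPM at 4 h and 1496, 1513 and 1512 CPM at 24 h, with no overlap between times. Pdcd1lg2, PD-L2, which overlaps A930007I19Rik on the opposite strand, rose from 0.251 ± 0.062 to 89.9 ± 4.3 CPM and the costimulator Cd80 from 19.4 ± 1.2 to 209 ± 9.4 CPM, whereas Cd86 fell from 18.2 ± 2 to 9.06 ± 0.79 CPM. The invariant chain Cd74 rose from 9.03 ± 0.84 to 148 ± 10 CPM and the class II gene H2-Aa from 0.799 ± 0.21 to 6.27 ± 0.49 CPM. Over this list 10 of 12 rose and 2 fell. Class I presentation went the other way, with 11 of 18 lower and 6 higher: Tap1, a peptide transporter, fell from 118 ± 5.1 to 28.6 ± 2.5 CPM and the immunoproteasome subunits Psmb8 and Psmb9 fell by 2.48 ± 0.072 and 4.20 ± 0.086 on the log2 scale. Tap1 and Psmb9 overlap on opposite strands. Cd101, an inhibitory receptor of mature neutrophils, fell from 442 ± 3.3 to 23.1 ± 0.58 CPM, while 11 of the 18 listed inhibitory and ageing markers rose, Lilrb4a from 925 ± 52 to 4555 ± 330 CPM among them.

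Most iron, antioxidant and lysosome genes rose. Of 12 iron and heme genes 9 rose and 3 fell. Hmox1, heme oxygenase, was at 79.2, 80.2 and 78.5 CPM unstimulated, 671, 670.3 and 656 CPM at 4 h and 1615, 1539 and 1468 CPM at 24 h, and each time lay apart from the others. Of 20 antioxidant genes, many of them targets of the factor NRF2, 16 rose and 4 fell (median 2.29). Slc7a11, the cystine importer, went from 141, 144 and 153 CPM to 4127, 4684 and 4909 CPM. Gclc, the catalytic subunit of the rate-limiting enzyme of glutathione synthesis, rose from 3.02 ± 0.54 to 261 ± 9.7 CPM, Srxn1 from 5.55 ± 1 to 594 ± 6.9 CPM and Txnrd1, thioredoxin reductase, from 79.9 ± 2.7 to 1590.5 ± 45 CPM. Gpx1, a glutathione peroxidase, fell from 672 ± 8.7 to 197 ± 15 CPM. The antioxidant pattern TGACNNNGC was found in 6 of 17 listed promoters (35.3%), against 11.5% of all genes.

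In the lysosome and V-ATPase list 27 of 29 rose, 20 of them at least 2-fold, 1 fell and 1 was not called, with a median of 2.41. Ctsb, a cysteine protease, was at 142, 149 and 145 CPM unstimulated and 2899, 2719 and 2592 CPM at 24 h. Psap rose from 1528 ± 18 to 8122 ± 187 CPM and Ctsd, an aspartic protease, from 807 ± 16 to 5789.9 ± 429 CPM. Gpnmb, a lysosomal membrane glycoprotein, rose from 0.231 ± 0.036 through 16.3 ± 1.1 to 325 ± 15 CPM, and Atp6v0d2, a proton pump subunit, from 0.209 ± 0.03 through 17.1 ± 0.73 to 170.5 ± 12 CPM. Lgmn, the protease legumain, rose from 1.82 ± 0.35 to 244 ± 9.4 CPM. The pump subunit Atp6v1a rose from 149 ± 1.3 to 1039 ± 17 CPM. Its promoter is shown with that of Hmgcs1 below as examples of other elements searched. Atp6v1a (chr16:44139359-44139416, - strand) holds TCACGTGA, the element of the lysosome factors TFEB and TFE3. Hmgcs1 (chr13:119690189-119690247, + strand) holds TCACNCCAC, a sterol response pattern.
Atp6v1a: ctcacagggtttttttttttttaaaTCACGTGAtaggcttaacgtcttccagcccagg
Hmgcs1: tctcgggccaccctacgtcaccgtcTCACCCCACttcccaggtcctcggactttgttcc
The TCACGTGA letters were in 4 of 22 listed lysosome promoters (18.2%) against 0.907% of all genes. The sterol pattern was in 1 of 16 (6.25%) against 1.22%. The GAS pattern TTCNNNGAA, searched in the CIS and SOCS list, was in 1 of 4 promoters (25%), that of Socs3, against 8.13% of all genes.

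Sterol genes rose late. Of 23 tested genes of sterol synthesis and uptake, 21 rose, each at least 2-fold, and 2 fell, with a median of 2.90, and 22 of 23 were higher at 24 h than at 4 h. Hmgcs1, which makes the HMG-CoA of the pathway, was at 27.7, 28.5 and 28.9 CPM unstimulated, 52.1, 51 and 51 CPM at 4 h and 212, 207 and 215 CPM at 24 h. Sqle, squalene epoxidase, went from 2.25 ± 0.44 through 3.57 ± 0.46 to 92.4 ± 2.3 CPM and Fdps, farnesyl diphosphate synthase, from 0.421 ± 0.14 through 10.9 ± 0.57 to 33.8 ± 2.9 CPM. The cholesterol exporter Abca1 peaked at 4 h, at 60 ± 2.2 CPM, and was at 5.99 ± 1.6 CPM at 24 h against 11.6 ± 0.43 CPM unstimulated. In the lipid list 14 of 18 rose, with the lipid droplet coat gene Plin2 going from 126 ± 3.2 to 1826 ± 97 CPM and Lpl, lipoprotein lipase, from 0.274 ± 0.079 to 10.4 ± 2.4 CPM. Glycolysis genes mostly fell, 13 of 21 against 7 that rose: the glucose transporter Slc2a3 fell from 2008 ± 18 to 121 ± 3.4 CPM, while Slc2a1 rose from 141 ± 3.9 to 323 ± 8.7 CPM, Pfkp rose from 65.2 ± 0.97 to 298 ± 5.9 CPM and Gpi1 fell from 1357 ± 26 to 197 ± 11 CPM. Of the hypoxia list 6 of 11 rose and 5 fell. Egln3, an oxygen-sensing hydroxylase, rose from 33.7 ± 1 to 753 ± 13 CPM, while its relative Egln1 fell from 24.1 ± 1.2 to 7.86 ± 0.93 CPM and Ndrg1 from 156 ± 2 to 46.4 ± 3 CPM. Acod1, the itaconate-producing enzyme, rose from 109 ± 4.5 to 2018 ± 67 CPM, and Arg1 and Nos2 stayed under 1 CPM.

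Protein production genes changed in different ways. Of 25 ribosome biogenesis genes 22 rose and 2 fell (median 1.96), with nucleolin, Ncl, at 80.6 ± 0.59 and 230.1 ± 10 CPM and nucleophosmin, Npm1, at 8.16 ± 0.9 and 47.5 ± 2.4 CPM. Myc, a known driver of such genes, was low but rose from 0.146 ± 0.032 to 3.81 ± 0.61 CPM. Polr1a, the largest subunit of RNA polymerase I, fell from 209 ± 1.5 through 67.7 ± 2.7 to 7.67 ± 0.37 CPM. Ribosomal protein genes fell in 21 of 35 and rose in 9, with a median of -0.23 and no rise of 2-fold, and respiratory chain genes fell in 22 of 34 and rose in 5. Among ribosomal proteins Rps4x fell furthest, from 50.7 ± 0.6 to 7.64 ± 1.4 CPM, followed by Rps27a, from 172 ± 4.4 to 38.4 ± 4.2 CPM, and Rps20 rose furthest, from 13.1 ± 0.97 to 26.4 ± 2.7 CPM. Genes of the integrated stress and unfolded-protein responses rose in 20 of 24. The chaperone Hspa5 rose from 305 ± 1.7 to 1125 ± 26 CPM, Hsp90b1 from 63.4 ± 1.2 to 403 ± 14 CPM and the amino acid transporter pair Slc3a2 and Slc7a5 from 74.2 ± 2.4 to 1259 ± 33 and from 3.84 ± 0.45 to 134 ± 5.8 CPM. Xbp1 peaked at 4 h, at 1787 ± 21 CPM, and was at 1048 ± 23 CPM at 24 h. Of 33 cell-cycle genes 27 fell and 5 rose, from low levels: Mki67 went from 64.1 ± 1.3 to 18.6 ± 2.7 CPM and Top2a from 40.3 ± 1.4 to 5.7 ± 1.4 CPM. Among apoptosis genes, the inhibitors Bcl2a1a, Bcl2a1b and Bcl2a1d, near-identical copies whose reads may be shared, rose from 0.629 ± 0.34, 0.523 ± 0.19 and 0.23 ± 0.14 CPM to 121 ± 10, 119.9 ± 18 and 60.2 ± 3.1 CPM. Mcl1, on which neutrophil survival depends, fell from 2595 ± 45 to 1949 ± 72 CPM. On the other side, the death effectors Bax and Bcl2l11 rose from 5.79 ± 0.29 to 139.7 ± 11 CPM and from 41.2 ± 2.4 to 257 ± 7.5 CPM, and Bmf fell from 51.8 ± 2.3 to 5 ± 1.2 CPM.

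Lipid mediator and matrix genes were mixed. The leukotriene enzymes fell: Alox5 from 785 ± 13 to 273 ± 12 CPM, its activating protein Alox5ap from 1157 ± 24 to 339 ± 25 CPM and Lta4h from 214 ± 6.6 to 17.9 ± 2.5 CPM. The prostaglandin D synthase Hpgds rose from 0.107 ± 0.098 to 5.09 ± 0.78 CPM. Of the matrix, protease and coagulation list 11 of 18 rose and 5 fell. F10, coagulation factor X, was at 0.609, 0.571 and 0.322 CPM unstimulated, 219, 218 and 209 CPM at 4 h and 1521, 1431 and 1418 CPM at 24 h. F7, factor VII, rose from 0.251 ± 0.057 to 171 ± 3.3 CPM, Vcan, the proteoglycan versican, went from 0.104 ± 0.035 to 15.8 ± 2.5 CPM, Spp1, osteopontin, from 12.2 ± 0.65 to 652 ± 33 CPM and Mmp8, the neutrophil collagenase, fell from 5545 ± 79 to 503 ± 23 CPM.

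The largest rises over all genes were mostly of genes with no count in the unstimulated libraries. Dab2, an endocytic adaptor, was at 687, 688 and 696 CPM at 24 h which is at least 10998-fold higher with 3 counts taken as the floor of the unstimulated group. Car4, a membrane carbonic anhydrase, reached 579, 514 and 494 CPM, at least 8337-fold higher. Lrp12, a transmembrane receptor, had 1 count unstimulated and 339.7 ± 15 CPM at 24 h, a ratio of 16323 with a 95% counting interval of 2929 to 644764. The others without a count before were Snai3, a Snail-family factor (at least 1258-fold), Sphk1, sphingosine kinase (at least 764-fold), Il23a, the p19 subunit of interleukin-23 (at least 640.5-fold), Gstt3 (at least 616-fold), Adora2b, an adenosine receptor (at least 593-fold), the long noncoding RNA D7Ertd128e (at least 567-fold), Fcrlb (at least 322-fold), Tmem215 (at least 249-fold) and Enpep, an aminopeptidase (at least 235-fold). All of these had counts at 4 h, from 0.133 ± 0.18 CPM for Enpep to 39.2 ± 2.2 CPM for Lrp12. F10, Hbegf and Cmklr1, given above, complete the 15 largest rises.

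Ranked in the same way, the largest falls included genes that reached no count. Lct, lactase, and Ednra, an endothelin receptor, had 626 and 622 counts over the unstimulated group and none at 24 h, at least 191-fold and 190.1-fold lower. Nat8l, which makes N-acetylaspartate, went from 100.0, 102 and 92.8 CPM to 3 counts over the 24 h group, a ratio of 1433 with a 95% counting interval of 490.2 to 6953. Bmx, a Tec-family kinase, was at 258, 257 and 255 CPM unstimulated and 1.24, 1.29 and 1 CPM at 24 h. Rnf144a, a ubiquitin ligase, fell from 671 ± 5.1 to 4.76 ± 0.11 CPM, Lbp, the endotoxin-binding protein, from 49.4 ± 1.5 to 0.198 ± 0.11 CPM and Mcam, an adhesion molecule, from 44.3 ± 0.38 to 0.215 ± 0.15 CPM. Chil5, Dtd1, Zbtb16, Sntb1, Dmpk, Sema4f, Smim5 and, given above, Tnfsf13b complete the 15 largest falls, with 1005, 532 and 508 times less for the first 3 and log2 fold changes of -7.89 ± 0.21, -7.76 ± 0.15, -7.69 ± 0.15 and -7.12 ± 0.26 for the next 4. Smim5 overlaps Recql5 on the opposite strand. The ratios for Chil5, Dtd1 and Zbtb16 rest on 1 or 2 counts at 24 h, with 95% counting intervals of 278 to 8301, 95.1 to 21044 and 90.8 to 20103.

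The same 24 h change in the WT libraries, which share no library with this comparison, tests what differs in the libraries labelled CIS-/-. The change differed between genotypes at 7489 of 11569 genes (64.7%), being higher in the libraries labelled CIS-/- at 3658 (31.6%) and lower at 3831 (33.1%). It differed at least 2-fold at 3501 genes (30.3%). Scaling by library sizes alone moves this split to 2028 and 6178 and the median difference from -0.02 to -0.51, so the direction of small differences rests on the TMM factors. The unstimulated libraries that enter this difference are those whose Cish goes against the label. Among the lists, the change was higher than in WT in 26 of 29 lysosome genes and lower in 0 (median difference 1.15), and in 22 of 25 immediate-early genes and lower in 2 (median 1.63). It was higher in 19 of 22 NF-kB genes and lower in 1 (median 1.60), and in 18 of 20 antioxidant genes and lower in 2 (median 1.70). These medians exceed the shift that library sizes alone bring to all genes. It was lower in 27 of 35 ribosomal protein genes and higher in 1, with a median difference of -0.67. For specific granule genes it was higher in 11 of 19 and lower in 6, with a median of 0.37 that is smaller than that shift. Chemokine changes were higher in 8 of 11 and lower in 0.

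Single genes show the size. Cxcl2 averaged 154 ± 4.4 CPM unstimulated and 135 ± 8.7 CPM at 24 h in WT, so its change was larger by 5.14 ± 0.07 on the log2 scale in the libraries labelled CIS-/- (edgeR adjusted p = 2.05e-29). Spp1 went from 8.77 ± 0.49 to 5.57 ± 0.67 CPM in WT, and the difference was 6.38 ± 0.13. Olr1, a scavenger receptor, went from 9.48 ± 0.47 to 10.1 ± 0.88 CPM in WT and from 6.61 ± 0.61 to 346 ± 7 CPM in the libraries labelled CIS-/-, a difference of 5.62 ± 0.12. Among falls, Cd101 rose in WT from 445 ± 3.9 to 575 ± 2.9 CPM, and the difference was -4.63 ± 0.054. Fbxo31, an F-box protein, was at 95 ± 2.8 and 112 ± 4.8 CPM in WT and fell from 123 ± 2.7 to 4.05 ± 0.97 CPM here, a difference of -5.16 ± 0.094. Cish itself differed by -3.68 ± 0.081, rising less in the libraries labelled CIS-/-.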

How the data were processed

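RNA was extracted from sorted bone marrow neutrophils and made into directional libraries sequenced on a NextSeq 500, per the labels. The deposited table holds raw counts of reads per gene for all 18 libraries in 53379 Ensembl gene identifiers. Per the submitters' processing notes Trimmomatic, STAR and featureCounts were used with the mm10 build. The sources used here do not give their versions or the strand setting. Gene symbols came from the GENCODE annotation of the same build, in which 50604 identifiers matched with the same version, 2670 with another version and 105 not at all.

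From these counts, 11569 genes kept by edgeR's filterByExpr (99.928% of counts) were tested with edgeR 4.0.16 in R 4.3.3: TMM scaling, 1 quasi-likelihood model of the 6 groups with a robust prior, two-sided tests and Benjamini-Hochberg adjustment over all 11569 genes. The common coefficient of variation was 3.3% on 12 residual degrees of freedom. Each SE was taken as the absolute log2 fold change divided by the square root of the F value of the quasi-likelihood test. CPM and RPKM were computed with the TMM factors, and a floor of 3 counts over a group was used where a gene had no count. Counting intervals are exact 95% intervals and cover counting error only. On simulated counts for 10468 genes of the same comparison, the test recovered 48%, 70%, 94% and 98% of genes changed by 1.25, 1.5, 2 and 3 times (50 genes each), and 6.06% of calls were unchanged genes. Only those 50 genes of each size were changed, and every group otherwise held the mean of the unstimulated libraries labelled CIS-/-. In the data 84.1% of genes were called, so the simulated rates need not hold there.

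The comparison, the 53 gene lists (43 of pathways and functions and 10 of cell type markers, 876 distinct genes) and their members were chosen with earlier results of these data known, so no p-value is given for a list. Named genes were Cish, the 15 largest rises and falls at 10 CPM or more, the 10 highest genes of each group, up to 8 called members of each list with the largest change at 5 CPM or more, all members of lists of up to 20, and the 10 largest differences from WT in each direction. Named outside that rule, after their values were seen, were Csf2, Il1b, Il15, Tgfb1, Cebpa, Cebpb, Cebpd, Gfi1, Nfkb2, Rel, Nfkbiz, Bcl3, Egr1, Nr4a1, Ier2, Oasl2, Ifit1, Isg15, Rsad2, Irf7, Gbp2, Hmgcs1, Slc2a1, Ctsd, Atp6v1a, Hspa5, Mki67, Ncl, Gm17040, Gm42418 and Lars2. Alternatives were RLE factors, library sizes alone, DESeq2 1.42.0, limma 3.58.1 voom, no filter, at least 50 counts in 3 libraries, only the compared groups, a replicate block, a non-robust prior, each library left out and a minimum log2 fold change of 1. Promoter sequences and starts came from RefSeq (GRCm38.p6), 250 bases upstream for 27025 genes.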

Additional observations from a re-analysis of the deposited data

Results flagged for a closer look

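At 7489 of the 11569 genes the change from unstimulated to 24 h differed between the libraries labelled CIS-/- and the WT libraries in the interaction term of the edgeR model (adjusted p under 0.05). The 20 largest differences are given here, 10 in each direction, as log2 differences of the change, CIS-/- minus WT.

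Among those higher in the libraries labelled CIS-/-, Spp1 (osteopontin) differed by 6.38, Olr1 by 5.62 and Atp6v0d2 by 5.44. Atp6v0d2 went from 0.187 ± 0.13 to 3.42 ± 0.37 CPM in WT and from 0.209 ± 0.03 to 170.5 ± 12 CPM in the libraries labelled CIS-/-. Zc3h12c, an RNA-binding nuclease family member, differed by 6.01, with 1.72 ± 0.2 CPM at 24 h in WT and 63 ± 7.4 CPM in the libraries labelled CIS-/-. Shmt1, the cytosolic serine hydroxymethyltransferase, differed by 5.96, with 0.427 ± 0.12 and 35.5 ± 0.91 CPM at 24 h. Shmt1 overlaps Smcr8 on the opposite strand, which went from 65.2 to 541 CPM in the libraries labelled CIS-/-, so reads in the overlap cannot be assigned with certainty. Lta, which encodes lymphotoxin alpha, differed by 7.03, Il23a by 8.30, Adora2b by 6.36, Sphk1 by 6.33 and Snai3 by 5.21. These last 5 had 0 to 3 counts over at least 1 unstimulated group, so their fitted sizes depend on the prior count and are no bounds. Their levels at 24 h in WT and in the libraries labelled CIS-/- were 1.63 ± 0.17 and 62.9 ± 6.7 CPM for Lta, 1.12 ± 0.088 and 40 ± 1.7 CPM for Il23a, 1.66 ± 0.27 and 37.4 ± 1.5 CPM for Adora2b, 2.15 ± 0.66 and 48.4 ± 2.1 CPM for Sphk1 and 13.3 ± 0.87 and 79.9 ± 3.8 CPM for Snai3.

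Among those lower, Bmx differed by -5.23, Fbxo31 by -5.16 and Cd101 by -4.63. Eef2k, the kinase of elongation factor 2, differed by -4.33, going from 59.3 ± 2.6 to 30.2 ± 1.1 CPM in WT and from 54.5 ± 1.6 to 1.3 ± 0.37 CPM in the libraries labelled CIS-/-. Scnn1a, a sodium channel subunit, differed by -4.15, with 15.5 ± 0.41 CPM at 24 h in WT and 0.92 ± 0.32 CPM in the libraries labelled CIS-/-. Abhd15, which overlaps Taok1 on the opposite strand, differed by -4.08, with 57.8 ± 1.9 and 2.95 ± 0.72 CPM at 24 h. Nat8l differed by -7.45, Zbtb16 by -6.58, Dtd1 by -5.08 and Lct by -4.41, and these 4 had 0 to 3 counts over the 24 h libraries labelled CIS-/-, so their fitted sizes are no bounds either. In the WT libraries at 24 h they stood at 13.6 ± 2, 3.19 ± 0.5, 0.959 ± 0.14 and 0.173 ± 0.052 CPM.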

How the results depend on the processing

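Under the alternatives run, the count of genes called stayed within 1.5 times of the reported one except with a minimum absolute log2 fold change of 1, which left 5775 of 9727 genes for 24 h against unstimulated, 3501 of 7489 for the difference from WT and 4140 of 8752 for 24 h against 4 h, since that alternative only removes calls. With one library left out at a time these counts lay between 9553 and 9770, between 7232 and 7465 and between 8439 and 8721. Of 232 named genes with a value under the alternatives, 231 kept their direction and call for 24 h against unstimulated, and Cd177 turned to -0.0844 with library sizes alone and lost its call without unstimulated replicate 3 (0.0621). Of 53 list medians 8 changed sign or reached 0 under 1 or more of 16 alternatives. Pro-apoptotic genes changed sign with library sizes alone (-0.0392). With at least 50 counts in 3 libraries, sterol export genes (-0.146), heat-shock genes (-0.0126), monocyte markers (0.0247) and eosinophil markers (0.505) did. With no low-count filter, dendritic cell markers (-0.106) and megakaryocyte markers (0.299) did, and the median of the hypoxia genes was 0. Monocyte markers also changed sign in the fit of the compared groups only (0.842) and without unstimulated replicate 2 (0.0978). The monocyte median, reported as -0.036, kept its sign but moved to -0.59 without 24 h replicate 3. The labels do not say whether a replicate number marks the same mouse at each time. Deviations of same-numbered unstimulated and 24 h libraries from their group means correlated at -0.023, 0.002 and 0.018, against -0.025 to 0.022 for other pairs. These values cannot tell whether the samples were paired, because deviations made mostly of counting error would not correlate in either case. With the number as a replicate block 9729, 7488 and 8735 genes were called. Genes with few counts are limited by depth, and 12170524 counts in the shallowest compared library give only bounds for genes near the floor.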

Other observations

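Some gene families were counted by the prefix of their symbols after the values were seen, so they are given as values. A count by prefix may take in genes that share the prefix without the function named. Some of their members are also in the lists. Histone genes rose in 15 of 20 tested and fell in 1, with a median log2 fold change of 1.80. Members of the TNF receptor superfamily rose in 8 of 12 and fell in 3 (median 2.60). Proteasome subunits rose in 24 of 37 and fell in 6 (median 0.46), and those that fell include the immunoproteasome genes Psmb8 and Psmb9. Translation initiation factors rose in 32 of 55 and fell in 14 (median 0.43). Kinesins, motors of microtubule transport and mitosis, fell in 17 of 27 and rose in 6 (median -1.52). Cyclin-dependent kinase inhibitors fell in 6 of 8, and the one that rose was Cdkn1a. Solute carriers moved both ways, with 93 of 182 higher and 61 lower, and Rab GTPases were almost even, with 24 higher and 23 lower of 54. Over all genes 42.1% were called higher and 42.0% lower.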
